A study of Mus musculus with 9 samples.

Results

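The 9 genes described here are markers of microglia, the resident macrophages of the brain: *Cx3cr1*, *P2ry12*, *Tmem119*, *C1qa*, *C1qb*, *C1qc*, *Csf1r*, *Aif1* and *Trem2*. They were chosen by name, with earlier results of these data known. Each was found by its Ensembl identifier among the 15464 genes of the striatal RNA-seq table. All 9 passed a filter on low values (3 or more libraries with a normalized count of 10 or higher), as did 14239 genes in all. The lowest value of any of the 9 in any library was 82.8 normalized counts (*Aif1* in HET replicate 3).

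The libraries came from the striatum of male littermates of the *Shank3B* line, in which a block of internal exons of *Shank3* is targeted in every cell of the animal. *Shank3* encodes a scaffold protein of excitatory synapses. WT mice carried 2 intact alleles, HET mice 1 and KO mice 0. Each genotype had 3 mice aged 10 to 12 weeks, all bred on a C57BL/6J background, and each mouse gave 1 library. The question put to the data was whether microglial transcripts differ with the dosage of *Shank3*.

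Microglia enter the brain early in development and renew themselves there. They survive on signalling through CSF1R, sense neurons through receptors such as CX3CR1 and P2RY12, and make C1q, the protein that starts the classical complement cascade and tags synapses for removal. In the healthy brain they carry high levels of P2RY12 and TMEM119, and after injury or in neurodegeneration TREM2 helps drive a change of state. In bulk striatum, fewer microglia and less RNA per microglia cannot be told apart.

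The values were normalized counts, read estimates divided by a factor for each library. They summed to between 30830020 and 33790296 per library. The first principal component of all genes tested held 33.6% of the variance with HET replicate 3 at 33.8, KO replicate 3 at 34.2 and the other 7 libraries between −17.0 and 1.35. Results of the members that rest on these libraries are therefore given with and without them. *Shank3* itself had 7209, 8812 and 6043 normalized counts in WT replicates 1, 2 and 3, 7575, 7098 and 8050 in HET and 10237, 10798 and 10578 in KO. The 3 KO libraries lay above the other 6. This gene-level value counts reads of the exons outside the targeted block as well, so it does not check the genotype labels. Medium spiny neuron markers, which define the labelled tissue, were abundant in every library. *Ppp1r1b*, which encodes the dopamine-regulated phosphatase inhibitor DARPP-32, averaged 25219 ± 7734 in WT, 23578 ± 3234 in HET and 19008 ± 6017 in KO (SD, n = 3 each). Its values ran from 12449 in KO replicate 3 to 31982 in WT replicate 2. Whether the dissections were alike was not tested.

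The 3 C1q genes lie side by side on chromosome 4, on the minus strand, within 18675 bases: *C1qb* (ENSMUSG00000036905) at chr4:136880129-136886187, *C1qc* (ENSMUSG00000036896) at chr4:136889804-136893065 and *C1qa* (ENSMUSG00000036887) at chr4:136895917-136898803, in the GRCm38 build. Gaps of 3616 and 2851 bases separate them. *P2ry12* (ENSMUSG00000036353) is at chr3:59216272-59262871 and *Cx3cr1* (ENSMUSG00000052336) at chr9:119901616-120069879, both on the minus strand. *Tmem119* (ENSMUSG00000054675) is on the minus strand at chr5:113793729-113800516. *Aif1* (ENSMUSG00000024397) is on the minus strand and *Trem2* (ENSMUSG00000023992) on the plus strand of chromosome 17, at chr17:35170991-35176068 and chr17:48346401-48354147. All are protein-coding, as is *Csf1r* (ENSMUSG00000024621).

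Promoters are shown because the members are transcribed together in 1 cell type, whose master regulator PU.1, encoded by *Spi1*, belongs to the ETS family and binds purine-rich sites. RefSeq promoter windows (build GRCm38.p6) of 250 bases before to 50 after the gene's start were matched for 6 of the 9 members. They did not include *Tmem119*, *C1qa* or *Csf1r*. The letters AGGAAGT, an ETS-type core chosen from general knowledge, were searched on both strands (ACTTCCT on the other strand). They occurred in 3 of the 6 windows, those of *P2ry12*, *C1qb* and *C1qc*, and in 9.35% of all 32851 promoter windows. The windows of *Cx3cr1*, *Aif1* and *Trem2* did not hold these letters, which says nothing about binding of the factor. The 3 windows with a match are printed 5′ to 3′ in the direction of transcription, all from the minus strand, with the match in capitals:
*P2ry12*, chr3:59262936-59263235: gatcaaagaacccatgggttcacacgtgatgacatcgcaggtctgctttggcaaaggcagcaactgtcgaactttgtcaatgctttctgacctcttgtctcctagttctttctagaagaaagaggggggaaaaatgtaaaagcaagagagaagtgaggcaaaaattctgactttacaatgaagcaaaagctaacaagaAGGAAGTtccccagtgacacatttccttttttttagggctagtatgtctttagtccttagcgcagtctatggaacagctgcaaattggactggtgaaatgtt
*C1qb*, chr4:136886151-136886450: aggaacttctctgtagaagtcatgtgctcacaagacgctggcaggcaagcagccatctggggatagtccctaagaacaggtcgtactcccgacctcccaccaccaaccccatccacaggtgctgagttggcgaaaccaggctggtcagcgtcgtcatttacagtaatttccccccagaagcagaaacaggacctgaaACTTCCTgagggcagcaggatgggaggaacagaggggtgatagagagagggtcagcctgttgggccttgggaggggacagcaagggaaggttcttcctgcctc
*C1qc*, chr4:136892865-136893164: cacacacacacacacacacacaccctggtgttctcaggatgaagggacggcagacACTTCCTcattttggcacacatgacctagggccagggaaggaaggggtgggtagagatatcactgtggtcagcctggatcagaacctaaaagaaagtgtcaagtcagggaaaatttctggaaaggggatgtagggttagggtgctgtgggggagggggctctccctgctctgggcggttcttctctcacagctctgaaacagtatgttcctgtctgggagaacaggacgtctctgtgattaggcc
The match begins 52 bases before the start of *P2ry12* and reads AGGAAGT. In *C1qb* and *C1qc* it reads ACTTCCT and begins 53 and 195 bases before the start. These are matches of letters, not measured binding sites. *C1qb* and *C1qc*, which both hold a match, differed in which libraries were low. A relation of the matches to expression was not tested.

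No member passed a test for a difference between genotypes. With limma and Benjamini-Hochberg adjustment over all 14239 genes, 0 of the 9 passed an adjusted p of 0.05 in HET against WT, KO against WT or KO against HET, where 0% of all genes tested passed in each. *Shank3*, whose KO libraries all lay above those of WT and HET, was not called in KO against WT either. The absence of calls therefore does not show that no gene differed. At an unadjusted p under 0.05, 0 of the 9 passed in any of the 3 comparisons, beside 1.11% of all genes for HET against WT, 0.822% for KO against WT and 1.31% for KO against HET. A slope over the number of intact alleles lost also gave 0 of 9 members at that level, beside 0.969% of all genes. With the replicate number as a block, 0 of the 9 passed it either, beside 2.56%, 2.18% and 2.23% of all genes in the same order of comparisons. With 3 mice in each group, an exact two-sided permutation test of a single gene cannot go below 0.1, and over the 27 tests of members the lowest was 0.2. The values of each pair of genotypes overlapped for every member, so that 0 of 9 were without overlap, beside 4.45% of all genes for HET against WT, 4.54% for KO against WT and 4.45% for KO against HET.

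The fitted differences were small and lay on both sides of 0. The median log2FC (difference of log2(normalized count + 1)) of the 9 members was 0.07 in HET against WT, −0.03 in KO against WT and −0.05 in KO against HET, and that of all genes tested was close to 0 in each. Of the 9 members, 5 had a fitted log2FC above 0 in HET against WT (49.3% of all genes) and 4 in KO against WT (51.6%). In KO against HET, 2 did (49.6%). Without HET replicate 3 and KO replicate 3, 6 of 9 lay above 0 in HET against WT, 6 in KO against WT and 2 in KO against HET, and the median in KO against WT was 0.09. The median standard error of the members, 0.12, was below that of all genes tested, 0.15. The 95% confidence interval of the difference lay within 2-fold either way for 9 of 9 members in each comparison and within 1.5-fold for 6 of 9.

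**Figure D1:**
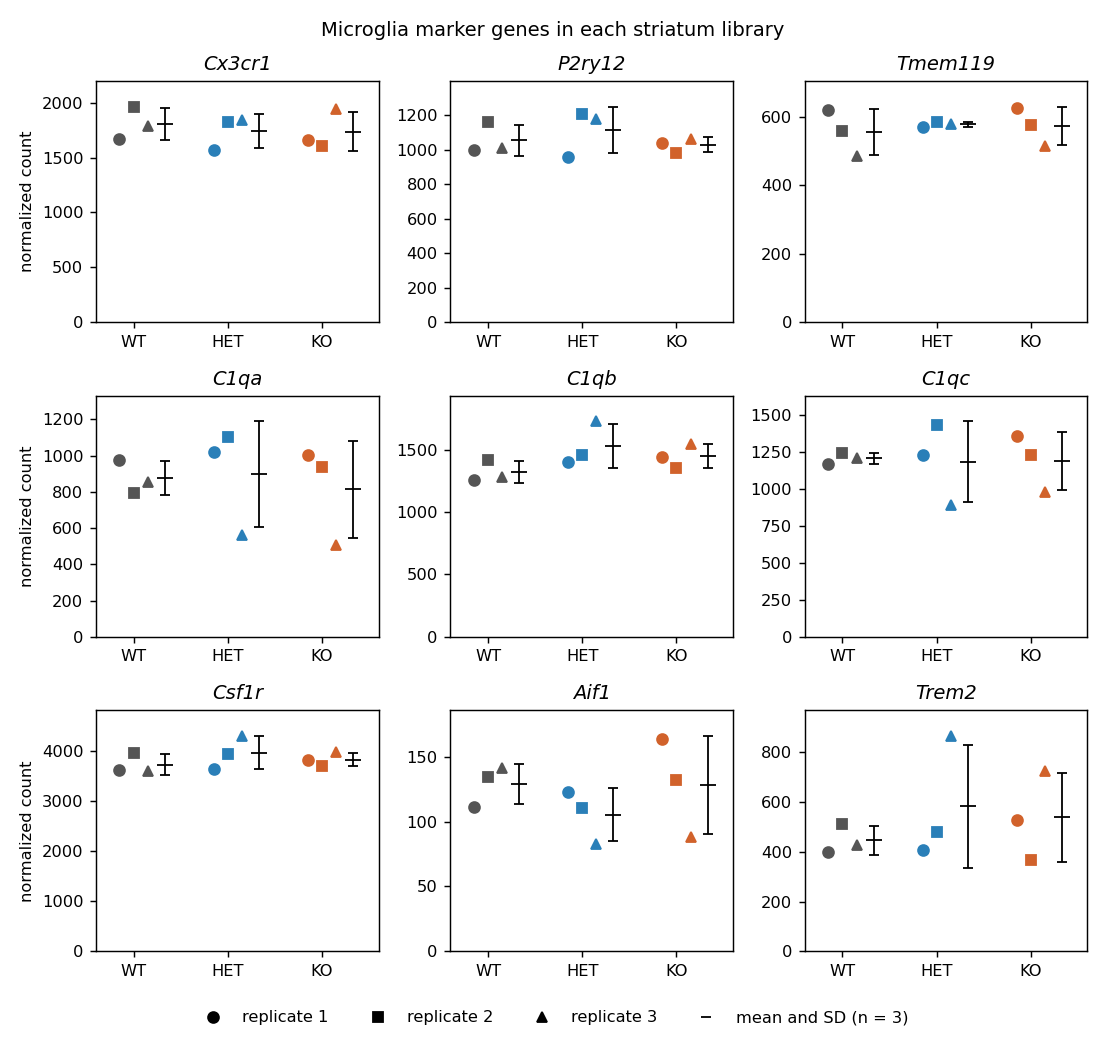
Normalized counts of the 9 members (vertical axis, from 0) by genotype, with circles, squares and triangles for replicates 1, 2 and 3 and bars for the mean and SD of 3 mice. The genotypes overlap in all 9 panels, and in HET and KO replicate 3 is lowest for *C1qa*, *C1qc* and *Aif1* and highest for *Trem2*.

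**Figure D2:**
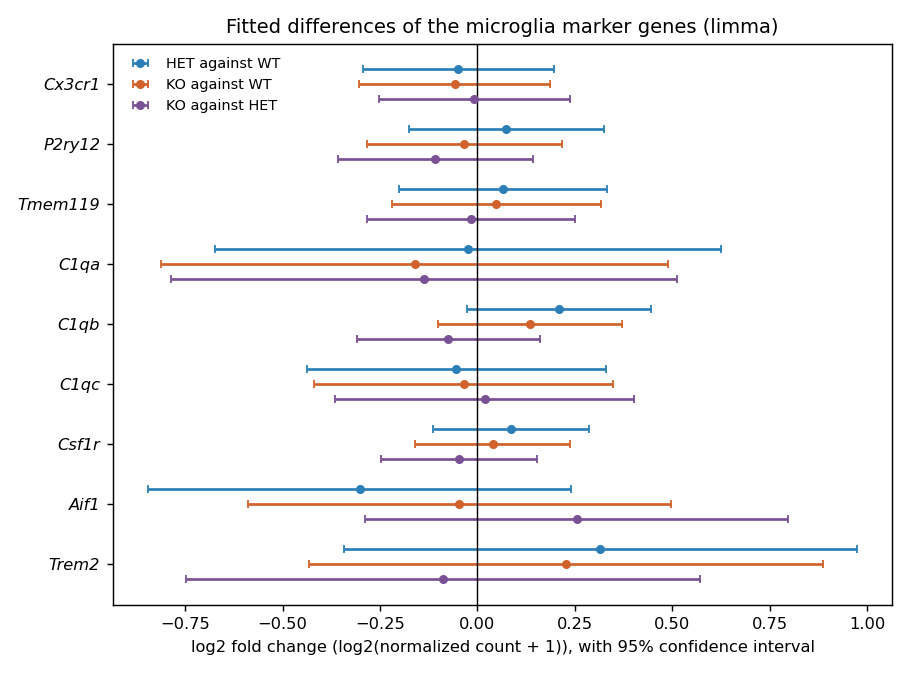
Fitted log2FC of each member (limma, log2(normalized count + 1); points) with 95% confidence intervals (bars) for HET against WT, KO against WT and KO against HET. Every interval includes 0, and the widest belong to *Trem2*, *C1qa* and *Aif1*.

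*Csf1r*, the receptor for CSF1 and IL-34 on which microglia depend for survival, varied least. Its normalized counts were 3630, 3975 and 3607 in WT replicates 1, 2 and 3, 3655, 3957 and 4308 in HET and 3820, 3711 and 3985 in KO. The gene is on the plus strand at chr18:61100598-61132149 (GRCm38). The 9 libraries lay between 3607 and 4308, with HET replicate 3 highest, and the groups overlapped. The log2FC was 0.09 (95% confidence interval −0.11 to 0.29) in HET and 0.04 (−0.16 to 0.24) in KO. The upper bounds are 1.22-fold in HET and 1.18-fold in KO.

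*Cx3cr1*, the receptor for the neuronal chemokine fractalkine, also varied little. It had 1666, 1962 and 1786 normalized counts in WT, 1567, 1827 and 1839 in HET and 1660, 1607 and 1939 in KO. The lowest libraries were HET replicate 1 and KO replicate 2, and the highest was WT replicate 2. The log2FC was −0.05 in HET (SE 0.11) and −0.06 in KO (SE 0.11).

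*P2ry12*, the ADP receptor that directs microglial processes towards injury and active synapses, had 1000.1, 1160 and 1007 normalized counts in WT. HET libraries had 960.1, 1204 and 1178 and KO libraries 1041, 982.1 and 1065. HET held both the lowest and the highest library, and KO lay between them. Its log2FC was 0.07 (SE 0.11) in HET and −0.03 (SE 0.11) in KO. *Tmem119*, a membrane protein used to tell microglia from other macrophages, had 619.8, 559.2 and 485.3 normalized counts in WT, 570.1, 585.2 and 578.9 in HET and 626.4, 577.0 and 515.2 in KO. Both HET and KO means, 578 ± 7.57 and 573 ± 55.7, lay within 1 SD of the WT mean of 555 ± 67.4 (n = 3 each).

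The 3 C1q chains, which are assembled together into 1 protein, did not vary alike. *C1qb* had 1259, 1420 and 1281 normalized counts in WT, 1401, 1461 and 1727 in HET and 1446, 1354 and 1546 in KO. In both HET and KO 2 of 3 libraries lay above all WT libraries. This was the member nearest to a difference from WT: its log2FC was 0.21 in HET (SE 0.11, 95% confidence interval −0.03 to 0.44, limma unadjusted p = 0.0768, adjusted p = 0.999) and 0.13 in KO (SE 0.11, −0.10 to 0.37). Without HET replicate 3 and KO replicate 3 these became 0.12 and 0.09.

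*C1qa* had 976.9, 796.6 and 856.6 normalized counts in WT, 1022, 1105 and 561.6 in HET and 1001, 935.7 and 508.5 in KO. Replicates 1 and 2 of HET lay above every WT library, while HET replicate 3 and KO replicate 3 lay below every other library. *C1qc* had 1167, 1244 and 1207 normalized counts in WT, 1229, 1429 and 891.1 in HET and 1358, 1225 and 978.0 in KO, with the same 2 libraries lowest. For *C1qa* the log2FC was −0.02 (95% confidence interval −0.67 to 0.63) in HET and −0.16 (−0.81 to 0.49) in KO.

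The direction of *C1qa* and *C1qc* rested on those 2 libraries. Without them the log2FC of *C1qa* was 0.28 in HET (SE 0.11, 95% confidence interval 0.04 to 0.53, limma unadjusted p = 0.0286, adjusted p = 1.00) and 0.15 in KO. That of *C1qc* went from −0.05 to 0.14 in HET and from −0.04 to 0.10 in KO. With these libraries left out, 1 of 9 members (*C1qa*) was under an unadjusted p of 0.05 in HET against WT, beside 1.93% of all genes, and 0 of 9 in KO against WT (1.54%) and KO against HET (1.59%). Leaving these libraries out was chosen after the data were seen. It removes the 2 lowest values of *C1qa* and leaves fewer mice in HET and KO. The p and interval of *C1qa* without them are therefore not read as a result.

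The chains were also set against each other per kilobase of transcript within each library. The ratio of *C1qa* to *C1qb* was 0.812, 0.587 and 0.700 in WT, 0.763, 0.791 and 0.340 in HET and 0.724, 0.723 and 0.344 in KO. The ratio of *C1qc* to *C1qb* was 0.839, 0.792 and 0.852 in WT, 0.793, 0.884 and 0.467 in HET and 0.850, 0.818 and 0.572 in KO. In both ratios HET replicate 3 and KO replicate 3 stood below the other 7 libraries, and WT replicate 3 did not.

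*Trem2*, the lipid-sensing receptor, was high in the libraries where *C1qa* was low. It had 400.1, 510.7 and 425.9 normalized counts in WT, 405.0, 479.1 and 864.6 in HET and 526.1, 366.6 and 723.9 in KO. HET replicate 3 and KO replicate 3 were the highest of the 9, and the lowest was KO replicate 2. The log2FC was 0.32 in HET (95% confidence interval −0.34 to 0.97) and 0.23 in KO (−0.43 to 0.89), and without these 2 libraries it was −0.01 in both.

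*Tyrobp* encodes DAP12, the adaptor through which TREM2 signals, and its transcript was low where that of *Trem2* was high. It had 372, 371 and 363 normalized counts in WT, 387, 442 and 251 in HET and 385, 383 and 266 in KO. The ratio of *Trem2* to *Tyrobp* per kilobase was 0.558, 0.713 and 0.608 in WT, 0.542, 0.562 and 1.78 in HET and 0.708, 0.496 and 1.41 in KO. Outside HET replicate 3 and KO replicate 3 it stayed between 0.496 and 0.713.

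*Aif1*, which encodes the actin-binding protein Iba1 used to stain microglia, was the least abundant member. It had 111.4, 134.7 and 141.1 normalized counts in WT, 122.6, 110.7 and 82.8 in HET and 163.6, 132.4 and 88.5 in KO. The same 2 libraries were lowest and KO replicate 1 was highest. The log2FC was −0.30 in HET (SE 0.24, 95% confidence interval −0.84 to 0.24) and −0.05 in KO (SE 0.24), and without HET replicate 3 and KO replicate 3 it was −0.14 and 0.20.

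**Figure D3:**
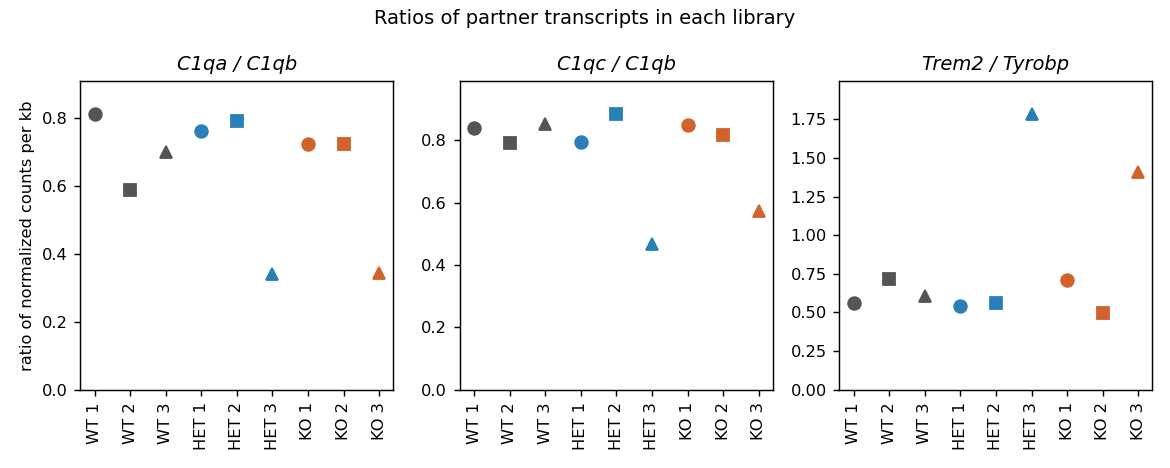
Ratios of normalized counts per kilobase of transcript (vertical axes, from 0) in each of the 9 libraries for *C1qa* over *C1qb*, *C1qc* over *C1qb* and *Trem2* over *Tyrobp*. HET replicate 3 and KO replicate 3 are the lowest in the first panels (0.340 and 0.344 for *C1qa* over *C1qb*) and the highest in the last (1.78 and 1.41).

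The members differed in how much they varied across the 9 libraries. The coefficient of variation was 5.96% for *Csf1r*, 7.94% for *Tmem119*, 8.12% for *Cx3cr1*, 8.60% for *P2ry12* and 9.90% for *C1qb*, all below the median of all genes tested, 12.7%. It was 14.1% for *C1qc*, 21.2% for *Aif1*, 24.0% for *C1qa* and 31.9% for *Trem2*, and the last 3 lay above the upper quartile of all genes, 19.7%. The sum of the 9 members' normalized counts ranged from 10797 to 11762 in WT, from 10931 to 12159 in HET and from 10891 to 11642 in KO.

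The 4 most variable members had their extreme values in replicate 3 of HET or KO, except the highest of *C1qa*, *C1qc* and *Aif1* and the lowest of *Trem2*. Replicate 3 minus the mean of replicates 1 and 2, on the log2 scale, was −0.92 in HET and −0.93 in KO for *C1qa*, against −0.04 in WT, and these lay at percentiles 2.55 and 2.94 of all genes tested. For *Trem2* it was 0.97 in HET and 0.72 in KO, at percentiles 98.3 and 96.8, against −0.09 in WT. *Aif1* gave −0.49 in HET and −0.73 in KO against 0.20 in WT, and *C1qc* gave −0.57 and −0.40. Those of *Aif1* lay at percentiles 10.2 and 5.19 and those of *C1qc* at 7.56 and 14.7. Over the 9 members the median size of this deviation was 0.27 in HET and 0.25 in KO, near the 0.25 and 0.24 of all genes tested. For *Csf1r*, the same value was 0.18 in HET and 0.08 in KO.

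Other microglial genes also lay on both sides of 0 in this measure, and those named here were chosen after their values were seen. *Laptm5*, which encodes a lysosomal membrane protein, had replicate 3 values 0.94 higher in HET and 0.44 higher in KO on the log2 scale. *Tyrobp* gave −0.72 in HET and −0.53 in KO. Over all genes, the same deviation had a median of −0.06 in HET and −0.08 in KO among the genes below the lower quartile of GC content and 0.10 and 0.09 among those above the upper quartile, against −0.02 and 0.02 in WT. The principal transcripts of *C1qa*, *C1qb*, *C1qc* and *Trem2* have GC contents of 59.5%, 57.4%, 57.5% and 57.5% and lengths of 1040, 1088, 1203 and 1088 bases. What sets replicate 3 of HET and KO apart was not tested.

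**Figure D4:**
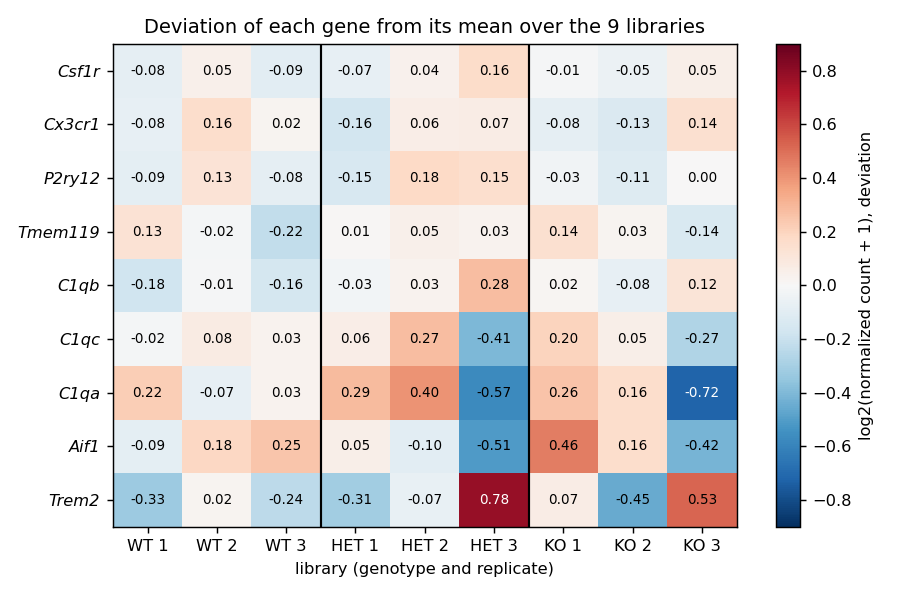
Deviation of each member from its own mean over the 9 libraries, log2(normalized count + 1), as colour and printed value, with genes in rows, libraries in columns and lines between genotypes. HET 3 and KO 3 hold the extremes: −0.57 and −0.72 for *C1qa*, 0.78 and 0.53 for *Trem2*.

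Compared per kilobase of the principal transcript, a rough scale for setting levels between genes, *C1qb* was the most abundant member. Its mean over the 9 libraries was 1317 normalized counts per kilobase (range 1157 to 1588). It was followed by *C1qc* at 991 (741 to 1188), *C1qa* at 830 (489 to 1063) and *Csf1r* at 819 (767 to 916). *C1qb* exceeded *C1qc*, and *C1qc* exceeded *C1qa*, in 9 of 9 libraries, although their ranges overlapped. *C1qa* exceeded *Csf1r* in 6 of 9 (6 of the 7 without HET replicate 3 and KO replicate 3), so that their order is not set by these data. *Trem2* (480, range 337 to 795) and *P2ry12* (455, 410 to 514) were likewise not separable, as *Trem2* was above *P2ry12* in 3 of 9 libraries. Without HET replicate 3 and KO replicate 3, *Trem2* averaged 409 and *P2ry12* 448, and *Trem2* was the higher in 1 of 7 libraries. *Cx3cr1* (392, 349 to 437), *Tmem119* (254, 216 to 279) and *Aif1* (138, 94.6 to 187) came last, with no overlap between the ranges of neighbours among these 3.

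The ligands of the member receptors are made largely by neurons and other cells. *Cx3cl1*, which encodes neuronal fractalkine, had 29505 ± 2924 normalized counts in WT, 28112 ± 1602 in HET and 27368 ± 1685 in KO (SD, n = 3 each). Per kilobase it exceeded its receptor *Cx3cr1* by 20.0-fold to 23.6-fold in the 9 libraries. *Il34*, the neuronal ligand of CSF1R, had 1852 ± 154, 1679 ± 404 and 1628 ± 87.5 normalized counts in WT, HET and KO, and *Csf1*, the other ligand, 532 ± 170, 545 ± 56.2 and 520 ± 53.4. The spread was widest for *Il34* in HET, where replicate 3 had 1236, and for *Csf1* in WT, where replicate 3 had 726. *Il34* exceeded *Csf1* per kilobase by 5.91-fold to 10.7-fold. Among the 11 genes for ligands and neuronal partners, 0 passed the adjusted threshold in any comparison and the median log2FC was −0.01 in HET and −0.06 in KO. *Cd200r1*, the receptor for the neuronal restraint signal CD200, had 4.35, 3.00 and 8.97 normalized counts in WT, 15.7, 20.0 and 18.4 in HET and 12.2, 6.96 and 12.5 in KO. It passed the filter of 10 through the HET libraries, where it was high, so no p is given for it.

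Around the members, 118 genes of 9 lists were tested, of 129 in the table. The lists hold other microglia-enriched genes, neuronal ligands and partners, signalling, complement and immune genes, some of them expressed chiefly by neurons, and the border macrophage markers. With limma, 0 of the 118 passed the adjusted threshold in HET against WT, KO against WT or KO against HET. At an unadjusted p under 0.05, 1 was higher and 0 lower in HET against WT, 0 higher and 1 lower in KO against WT, and 1 higher and 2 lower in KO against HET. That is 0.847%, 0.847% and 2.54% of them, beside the 1.11%, 0.822% and 1.31% of all genes. The gene higher in HET was *Cd200r1*, and the gene higher in KO against HET was *C3*. Border macrophage markers gave the gene lower in KO against WT (*Clec12a*) and 1 of the 2 lower in KO against HET (*Ms4a7*). *Cd200r1*, *C3* and *Ms4a7* passed the filter only with libraries of the group where they were high. The counts and shares that include them are therefore not read as results.

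The 25 other microglia-enriched genes had a median log2FC of 0.03 in HET and −0.08 in KO. Of the 25, 16 lay above 0 in HET (49.3% of all genes) and 8 in KO (51.6%). In KO against HET, 4 of 25 did (49.6%). When single libraries were dropped the medians ran from 0.01 to 0.09 in HET and from −0.11 to −0.02 in KO. *Ctss*, which encodes the protease cathepsin S, had 1784 ± 118 normalized counts in WT, 1838 ± 276 in HET and 1716 ± 133 in KO. *Mertk*, a receptor for engulfing dying cells, had 1539 ± 175, 1540 ± 129 and 1443 ± 34.5 (SD, n = 3 each). *Ptprc*, which encodes the leukocyte antigen CD45, was at 139 ± 2.64, 153 ± 17.0 and 120 ± 8.30, with a KO against HET log2FC of −0.35 (limma unadjusted p = 0.0367, adjusted p = 1.00).

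Of the ligands, adaptor and downstream genes of TREM2, 8 were tested, with a median log2FC of −0.01 in HET and −0.01 in KO. *Apoe*, a lipid carrier that TREM2 binds, had 31040 ± 2228 normalized counts in WT, 32512 ± 3824 in HET and 30537 ± 1122 in KO. It is made mostly by astrocytes in the healthy brain. *Inpp5d*, which encodes the phosphatase SHIP1 that restrains TREM2 signalling, had 559 ± 43.6, 675 ± 194 and 559 ± 26.7 (SD, n = 3 each). The 16 disease-associated microglia genes had medians of 0.08 in HET (0.03 to 0.12 with each library left out in turn) and 0.04 in KO (−0.02 to 0.11, lowest without KO replicate 3). They include *Apoe* and the protease genes *Ctsb* (log2FC 0.09 in HET and 0.01 in KO) and *Ctsd* (0.11 and 0.05).

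The complement list held 25 genes besides the C1q chains, with a median log2FC of −0.04 in HET and 0.05 in KO. Leaving out HET replicate 1 turned the former to 0.10, and leaving out KO replicate 3 turned the latter to −0.05. Its most abundant members are neuronal complement regulators: *Sez6* had 13546, 16634 and 11500 normalized counts in WT, 11910, 11230 and 23053 in HET and 12060, 15033 and 16567 in KO. HET replicate 3 was the highest of the 9, and the other HET libraries were below the WT mean of 13893. *C3*, the central component that C1q acts on through C4 and C2, was near the limit of the filter. Its values were 6.19, 19.1 and 10.0 in WT, 7.93, 7.20 and 5.67 in HET and 9.81, 76.2 and 22.1 in KO. The KO against HET log2FC of 1.77 was computed with KO replicate 2 above every other library. *C3* passed the filter only with its KO libraries, where it was high, so no p is given for it.

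The purinergic list of 10 genes had medians of 0.10 in HET and −0.06 in KO. Dropping HET replicate 3 brought the HET median to 0.02, and dropping WT replicate 1 brought that of KO to 0.03. *P2ry13*, a relative of *P2ry12*, had 431 ± 76.5 normalized counts in WT, 430 ± 68.9 in HET and 396 ± 34.4 in KO, and *Entpd1*, which encodes the enzyme CD39 that breaks down ATP, 542 ± 99.5, 494 ± 49.8 and 527 ± 154 (SD, n = 3 each). The most abundant gene of that list, *Adora2a*, is chiefly a gene of striatal projection neurons. The 11 inflammation and interferon genes had medians of 0.07 (−0.02 to 0.29 with each library left out, the extremes without HET replicates 2 and 1) and 0.02 (−0.06 to 0.15, without WT replicate 1 and KO replicate 2). The 6 antigen presentation genes had medians of −0.03 and −0.24, but leaving out KO replicate 1 turned the KO median to 0.10, and leaving out HET replicate 1 turned the HET median to 0.25. *Cd86*, a costimulatory ligand gene, had log2FC values of 0.40 and 0.03. In each of these lists 0 genes passed the adjusted threshold.

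**Figure D5:**
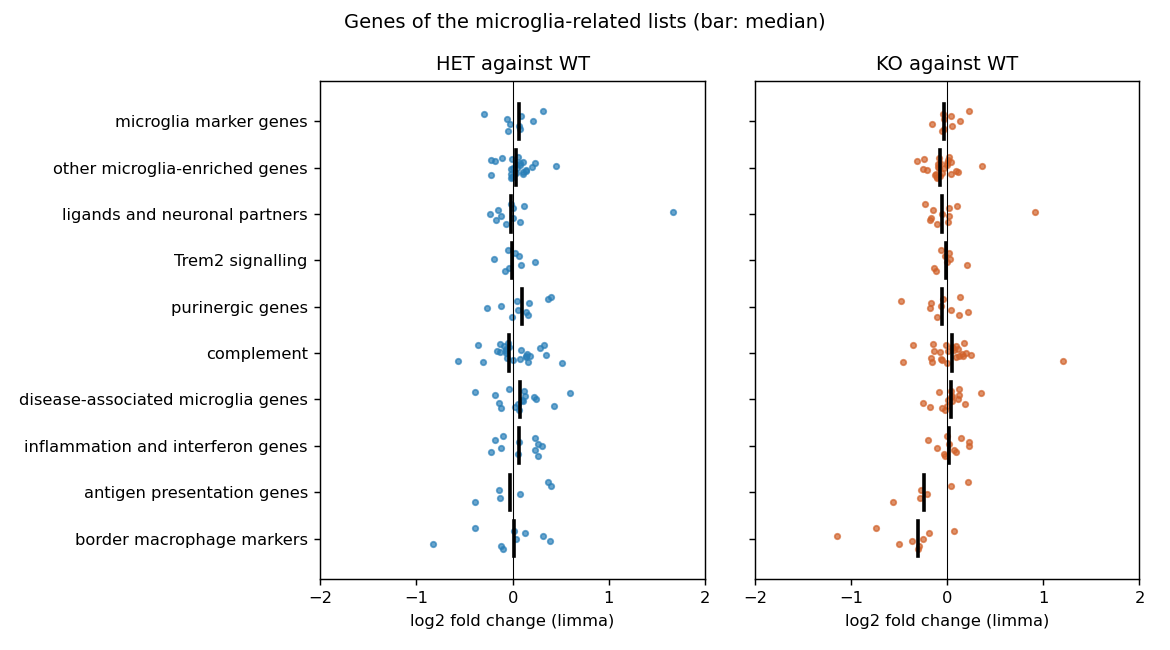
Fitted log2FC (horizontal axis, limma) of every gene tested in each microglia-related list (1 point a gene; black bar, median), for HET against WT and KO against WT. The medians lie between −0.31 (border macrophage markers, KO) and 0.10 (purinergic genes, HET), and the point at 1.66 is *Cd200r1*.

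Several members are also expressed by macrophages at the borders of the brain, in the meninges and around vessels. The markers of those cells were present in every library. *Stab1* was the highest, with a mean of 874 normalized counts over the 9 libraries, and *Mrc1* was next at 135. The sum of the markers therefore follows *Stab1* more than the others. The 9 border macrophage markers tested summed to 1169 to 1381 normalized counts in WT, 1098 to 1497 in HET and 1037 to 1443 in KO, with none at 0 in any library. Their median log2FC was 0.01 in HET, with 5 of 9 above 0 (49.3% of all genes), and −0.31 in KO, with 1 of 9 above 0 (51.6%). Of these markers, 0 passed the adjusted threshold. The KO median rested on single libraries, at −0.06 without KO replicate 1 and −0.51 without KO replicate 3, and the HET median ran from −0.15 to 0.22. *Stab1*, a scavenger receptor gene, had 853 ± 86.6 normalized counts in WT, 871 ± 193 in HET and 899 ± 123 in KO, and *Mrc1*, the mannose receptor gene, had 141 ± 20.0, 143 ± 69.7 and 121 ± 56.8 (SD, n = 3 each).

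*Clec12a*, an inhibitory lectin receptor gene, had 106, 83.6 and 80.6 normalized counts in WT, 83.3, 56.8 and 66.8 in HET and 61.6, 59.6 and 41.0 in KO. All 3 KO libraries lay below all WT libraries. Its log2FC in KO was −0.74 (SE 0.23, limma unadjusted p = 0.00984, adjusted p = 0.999). *Ms4a7*, another border macrophage marker, was below 24 normalized counts throughout, with a KO against HET log2FC of −1.46. *Ms4a7* passed the filter only with its HET libraries, where it was high, so no p is given for it.

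Other cells of the dissected tissue were followed by lists of their markers. The 10 medium spiny neuron markers summed to 78617 to 155217 normalized counts in WT, 107669 to 138380 in HET and 69770 to 115395 in KO. In KO against WT, 0 of 10 had a log2FC above 0, beside 51.6% of all genes. Their KO median was −0.31, −0.13 without KO replicate 3 and −0.63 without WT replicate 3, and their HET median was 0.04, −0.28 without WT replicate 3. The 9 oligodendrocyte markers had medians of 0.33 in HET (0.17 to 0.52 with each library left out) and 0.06 in KO (−0.06 to 0.24), the 9 astrocyte markers 0.06 and 0.03, and the 9 vessel markers 0.14 and 0.00. The 8 cortical neuron markers had medians of −0.12 and −0.04, with *Slc17a7*, the vesicular glutamate transporter gene of cortical neurons, at 34206 ± 4353 normalized counts in WT (SD, n = 3). None of the genes in these lists passed the adjusted threshold, and their part in the values of the microglia markers was not tested.

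The genes most like the members across the libraries were found by Pearson r with the mean of the members' centred log2 values, a description over 9 libraries that share their normalization. That mean ran only from −0.08 (KO replicate 3) to 0.11 (KO replicate 1). Within it, *C1qa* and *Trem2* moved in opposite directions in HET replicate 3 and KO replicate 3. The genes were *Cox4i2* (r = 0.94), which encodes a subunit of cytochrome c oxidase, *Wdr74* (0.89), *Nars2* (0.87), *Ints13* (0.86) and *Mcf2* (0.85). As the highest r among all genes tested, these values do not show a relation to microglia. Over the 7 libraries without HET replicate 3 and KO replicate 3, 1 of these 5, *Cox4i2*, was again among the first 5.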

How the data were processed

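RNA-seq libraries from the striatum of 9 male mice (3 WT, 3 HET and 3 KO, 1 mouse per library) were grouped and numbered from their labels. Libraries were made with a stranded poly(A) kit. The authors estimated transcript abundance with Salmon 0.9.1 on GRCm38 with GC bias correction, imported it with tximport and deposited a normalized signal per gene, read counts divided by DESeq2 1.19.11 size factors in R 3.6.0. Since low values lay near but not on steps of 1 read, whole reads were not recovered, the depth is unknown and no counting interval is given. Errors are the spread between mice. No 2 libraries held identical values. There were 0 unused value columns. A symbol was matched to 15457 genes and to all but 7. Of the listed symbols, 13 were not analysed here.

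Values were transformed as log2(normalized count + 1), a scale that understates changes of low genes, and 14239 genes with 3 or more values of 10 or higher were fitted with limma 3.58.1 (R 4.3.3), with trend, 9 libraries in one fit, no covariate, Benjamini-Hochberg adjustment and a threshold of 0.05. Members were also tested by exact two-sided permutation (scipy 1.17.1). Levels per kilobase used the length of the principal transcript in GENCODE M21. No account was taken of other isoforms or of fragment length, so genes of unlike length compare only roughly. The fit was also run on simulated libraries with added changes, drawn as independent noise for each gene. That run is not used as support for any result. Figures were drawn with matplotlib 3.10.9. Alternatives were other pseudocounts, filters, scalings and weights, the replicate block, and each library left out.

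The members and lists were chosen with earlier results of these data known. Named genes were the 9 members, the 2 to 4 most abundant genes of each list and those under an unadjusted p of 0.05, the 5 genes most like the members, and *Shank3*. Other genes were chosen after their values were seen: *Tyrobp*, *Il34*, *Csf1*, *P2ry13* and *Adora2a* for their link to a member or list. Some genes that the rule names are not reported here. Same-numbered HET and KO libraries deviated together (correlations of 0.52, 0.28 and 0.51). HET replicate 3 and KO replicate 3 also stood apart on the first principal component, so these correlations alone do not show a pairing by number. For WT with KO the correlations were 0.24, −0.22 and 0.02, and for WT with HET 0.32, −0.01 and 0.01. The sources used here do not say what the numbers stand for.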

Additional observations from a re-analysis of the deposited data

How the results depend on the processing

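Under 20 alternatives, 0 of 540 values of the members passed an adjusted p of 0.05 (lowest 0.974), and 0 genes of the whole table passed in any of them. Of the 27 differences of members, 8 kept their direction in all alternatives and 19 did not. With only 3 mice in a genotype, these signs are within the spread between mice.

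Leaving out HET replicate 3 and KO replicate 3, an alternative chosen after seeing the data, turned the log2FC of *C1qa* to 0.28 in HET and 0.15 in KO, *C1qc* to 0.14 and 0.097 (and −0.038 in KO against HET), *Trem2* to −0.0086 and −0.013, *Aif1* in KO to 0.20 and *Tmem119* in KO against HET to 0.058. The median of the members in KO against WT was then 0.086, and 1 of the 5 genes most like the members stayed among the first 5. Another alternative weighted libraries by their scatter in the same fit, so that deviating libraries counted less. It turned *C1qa* to 0.19 and 0.081, *C1qc* to 0.052 and 0.050 (and −0.0020 in KO against HET), *Aif1* in KO to 0.11 and *Tmem119* in KO against HET to 0.036, with a median of 0.050 in KO against WT. Scaling to the same sum turned *Cx3cr1* in KO against HET to 0.0027. The cause was not tested.

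Leaving out each library in turn moved the members' median from −0.026 to 0.076 in HET against WT, from −0.059 to 0.086 in KO against WT and from −0.084 to 0.013 in KO against HET. In HET against WT, the log2FC then ran from −0.11 to 0.026 for *Cx3cr1*, from −0.026 to 0.15 for *Tmem119*, from −0.21 to 0.28 for *C1qa*, from −0.20 to 0.14 for *C1qc*, from −0.0086 to 0.54 for *Trem2*. In KO against WT, the log2FC then ran from −0.14 to 0.0038 for *Cx3cr1*, from −0.071 to 0.036 for *P2ry12*, from −0.044 to 0.13 for *Tmem119*, from −0.34 to 0.15 for *C1qa*, from −0.14 to 0.097 for *C1qc*, from −0.24 to 0.20 for *Aif1*, from −0.013 to 0.48 for *Trem2*. In KO against HET, the log2FC then ran from −0.091 to 0.044 for *Cx3cr1*, from −0.084 to 0.057 for *Tmem119*, from −0.44 to 0.17 for *C1qa*, from −0.13 to 0.016 for *C1qb*, from −0.17 to 0.17 for *C1qc*, from −0.11 to 0.013 for *Csf1r*, from −0.33 to 0.24 for *Trem2*.

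With the replicate number as a block, 0 genes passed the adjusted threshold, and 365, 310, 318 and 341 genes were under an unadjusted p of 0.05 (HET v. WT, KO v. WT, KO v. HET, slope), against 158, 117, 186 and 138 without it. The block changed no call of a member. Weights gave 395 genes in KO against WT and 603 for the slope, a filter at 50 gave 76 in KO against WT, no trend gave 176, and the third HET and KO libraries left out gave 275, 219 and, for the slope, 281. With each library left out these counts ran from 119 to 394, 72 to 292, 141 to 303 and 82 to 347. List medians moved by more than the spread in 5 of 960 cases, where the spread is the SD of a list's median between mice of a genotype. It is wide for some lists, so moves within it include changes of sign. The median of the medium spiny neuron markers in HET went from 0.04 to −0.28 without WT replicate 3. This count therefore does not show that the medians are stable.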
